A study of Drosophila mojavensis with 14 samples.

Results

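A set of 40 transcripts of the Drosophila mojavensis female lower reproductive tract stood high soon after mating and then came down step by step, with the mean at 6 h still above that of virgins. They were selected on their measured group means, from 14519 transcripts on the array of which 14471 have a GI number, as the 40 with the largest rise among the 805 whose group means ran in the order 15 min, 2 h, 6 h and virgin, from highest to lowest, after mating with either kind of male. The score of a member was this rise, the 15 min mean minus the virgin mean on the log2 scale (1 unit is 2-fold), from probe intensities that were quantile normalized without background correction and averaged per transcript. The score ran from 5.51 to 1.03, and every comparison it used is given as a description with no test. The last member inside, GI20158, scored 1.03, and the next transcripts outside, GI20360, GI23282 and GI13303, scored 1.02, 1.00 and 0.96.

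Mating in Drosophila passes sperm and seminal fluid, including proteins made in the male accessory glands, into the female tract, where they act on sperm storage, egg laying and the female's later behaviour. The lower tract holds the uterus and the sperm storage organs, and it changes its own RNA and protein content within hours of mating. In D. mojavensis and related species the uterus also forms a mass of material after mating, known as the insemination reaction. Drosophila arizonae is the closest relative of D. mojavensis, and the species can mate with each other.

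The females came from 1 isofemale line of D. mojavensis, and were either virgin, mated with D. mojavensis males (conspecific), or mated with males of 1 isofemale line of D. arizonae (heterospecific). All flies were aged for 10 to 12 days as virgins, and each mated female had been placed with 2 males. Tracts were taken at 15 min, 2 h or 6 h after copulation, and each sample pooled 20 to 25 of them. The 7 groups held 2 arrays each, described in the labels as biological replicates, on 1-colour NimbleGen arrays. The isofemale lines stand for their species here, so differences between the males' species and between those lines cannot be told apart. In pooled tracts, more cells with an RNA and more RNA per cell cannot be told apart either.

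The files name these transcripts only by GI numbers, and the reference table matched 0 of them, so what the 40 genes encode was not analysed here, and marker genes of the tract could not be looked up to check the tissue. Raw upper quartiles of probe intensity ran from 943 to 1413 on 4 dim arrays (virgin replicate 2, conspecific 15 min replicate 2, 2 h replicate 1 and 6 h replicate 1) and from 2015 to 2912 on the other 10. The dates in the file headers, which are those of the data files, fall on 2 days. Day 1 covers all 4 heterospecific arrays of the later times, replicate 1 of heterospecific 15 min, and replicate 2 of conspecific 6 h, and day 2 the other 8.

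The 40 members divided by the kind of mating that brought them in. A member counts here as carried by a series, conspecific or heterospecific, if its means have the order in that series and its rise there alone reaches the score of the last member. By that count 17 members were carried by the conspecific series alone, 19 by the heterospecific series alone and 4 by both. All levels from here on are log2 intensities after background correction and quantile normalization, with the probes of a transcript summarised by median polish. On this scale 36 of the 40 kept the order in their series. The exceptions, named after their values were seen, were GI11382, GI22936 and GI10367, with a higher mean at 6 h than at 2 h, and GI22062, with a mean of 9.06 at 6 h and 9.07 in virgins. The order itself was met by 4.11% of all transcripts in the conspecific series and 3.32% in the heterospecific.

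**Figure D1:**
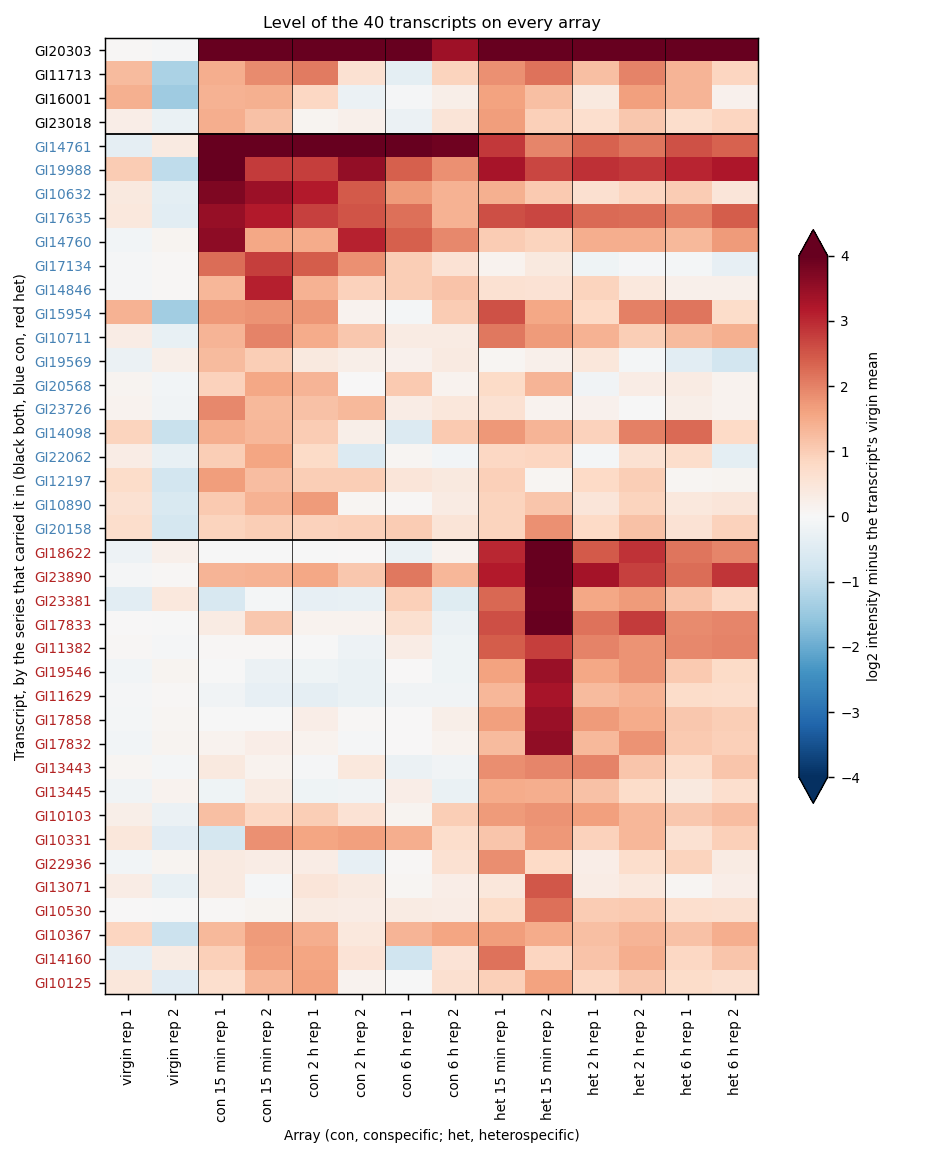
Level of each of the 40 transcripts (rows, named in black if carried by both series, blue by the conspecific and red by the heterospecific) on the 14 arrays (columns), as log2 intensity minus the mean of the 2 virgin arrays, with colours clipped at 4 either way. Most members carried by the heterospecific series are pale on all conspecific arrays, and heterospecific 15 min replicate 2 is the darkest column for many of them.

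GI20303 was the highest scoring member and the only one of the 4 carried by both series that was low on both virgin arrays and high on all 12 mated arrays. It lay at 8.10 and 8.02 in virgins. After conspecific mating it lay at 13.55 and 13.48 at 15 min, then at 13.24 and 12.97, and lastly at 13.00 and 11.43. After heterospecific mating the values were 13.85 and 14.10, then 13.81 and 13.25, and 13.32 on both arrays at 6 h. The rise at 15 min was 43.9-fold after conspecific and 60.3-fold after heterospecific mating. At 6 h 62.8% of the heterospecific rise in intensity above virgins was left, and no mated array overlapped a virgin one. On the log2 scale the heterospecific mean was 5.91 above virgins at 15 min and 5.26 at 6 h. The conspecific mean was 5.46 above virgins at 15 min and 4.16 at 6 h, so less of that rise was left. 

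GI14761, carried by the conspecific series, was higher on every array after mating with the female's own species than on any after heterospecific mating. Its virgin values were 7.33 and 8.08. The conspecific arrays read 13.48 and 13.01 at 15 min, then 13.04 and 12.88, and lastly 11.68 and 11.61. On the heterospecific arrays it stood at 10.52 and 9.67, 10.06 and 9.84, and 10.24 and 10.08. So the level came down with time in the conspecific series, while in the heterospecific series it was lower and the 15 min and 6 h arrays overlapped. The rise at 15 min was 46.5-fold against 5.25-fold. Virgin replicate 1 lay under that array's background limit (explained below) of 7.58. With the limit in its place the rises were 42.7-fold and 4.82-fold.

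GI10632 and GI17635, also carried by the conspecific series, came down over the same hours. GI10632 read 7.98 and 7.18 in virgins, and 11.31 and 11.00, 10.74 and 10.02, and 9.27 and 8.96 at the 3 times after conspecific mating. After heterospecific mating it was 9.00 and 8.63, 8.23 and 8.45, and 8.60 and 8.05. For GI17635 the virgin values were 7.85 and 7.02, the conspecific ones 10.93 and 10.61, 10.16 and 9.96, and 9.64 and 8.83. Its heterospecific values were 10.00 and 10.09, 9.70 and 9.67, and 9.46 and 9.85. Both had every 15 min array, of either mating, above both virgin arrays. The conspecific rise at 15 min was 11.9-fold for GI10632 and 10.1-fold for GI17635, and the heterospecific rise 2.35-fold and 6.11-fold. Both lay under the background limit (explained below) of 7.74 on virgin replicate 2. With the limit in place of that value the conspecific rises were 9.82-fold and 7.87-fold, and the heterospecific ones 1.93-fold and 4.76-fold.

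GI19988 and GI14760 varied more between replicates. GI19988 lay at 8.96 on virgin replicate 1 and 6.92 on the dim replicate 2. The conspecific arrays read 12.19 and 10.74, 10.69 and 11.45, and 10.34 and 9.76. The heterospecific ones read 11.22 and 10.61, 10.86 and 10.76, and 10.97 and 11.18. All mated arrays were above both virgins, and the heterospecific mean at 6 h was not below that at 15 min. GI14760 was not above background in virgins, at 6.41 and 6.66. The background limit lay between 7.45 and 7.75 on the 14 arrays, and "not above background" means that both arrays of the group were under it. Conspecific values of GI14760 were 10.10 and 8.09 at 15 min, then 8.03 and 9.61, and lastly 8.91 and 8.45, so the 3 times overlapped. Heterospecific values were 7.54 and 7.42, 7.99 and 8.00, and 7.85 and 8.24. Its rise after conspecific mating was at least 2.71-fold, the limit standing in for the virgin level.

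Members carried by the heterospecific series alone were led by GI18622, which was not above background after conspecific mating. GI18622 stood at 6.45 and 6.85 in virgins and between 6.37 and 6.80 on all 6 conspecific arrays. After heterospecific mating it was at 9.68 and 11.66 at 15 min, then at 9.09 and 9.53, and lastly at 8.81 and 8.60. That is a rise of at least 8.05-fold at 15 min, and all heterospecific arrays lay above all virgin and conspecific ones. In 6 further members, named after their values were seen, the same held of background: GI11382, GI19546, GI11629, GI17858, GI17832 and GI10530 were not above background in virgins or at any conspecific time. In virgins alone 38.5% of all transcripts were not above background, and the share over these groups together was not counted. Over these 7 members the 8 virgin and conspecific arrays lay between 6.31 and 7.09. Their heterospecific 15 min values ran from 7.09 to 11.66 and their 6 h values from 6.95 to 8.81. GI10530 was above background at heterospecific 15 min on replicate 2 alone, at 8.52, and not at 2 h or 6 h. Its replicate 1 at 15 min, at 7.09, lay under that array's limit of 7.46. GI11382 differed least of the 7 between replicates at 15 min, with 9.20 and 9.53 at 15 min, then 8.76 and 8.57, and lastly 8.70 and 8.74.

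GI23890, GI23381 and GI17833 completed the 10 highest scores. GI23890 was not above background in virgins, at 7.39 and 7.47, and lay at 10.60 and 11.51, 10.77 and 10.16, and 9.68 and 10.28 after heterospecific mating. Every conspecific array was above both virgins too, at 8.78 and 8.83, 8.97 and 8.52, and 9.53 and 8.75, and there the mean at 6 h was the highest. The heterospecific rise at 15 min was at least 10.5-fold. GI23381 read 7.31 and 8.13 in virgins and 10.01 and 11.64, 9.26 and 9.43, and 8.85 and 8.53 after heterospecific mating. Its conspecific values, 7.08 and 7.63, 7.39 and 7.41, and 8.66 and 7.25, overlapped the virgin range. GI17833 lay at 8.00 and 7.98 in virgins and at 10.58 and 12.11, 10.17 and 10.79, and 9.88 and 9.94 after heterospecific mating. After conspecific mating it was at 8.31 and 9.08, 8.12 and 8.13, and 8.63 and 7.76, close to virgins at the later times.

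**Figure D2:**
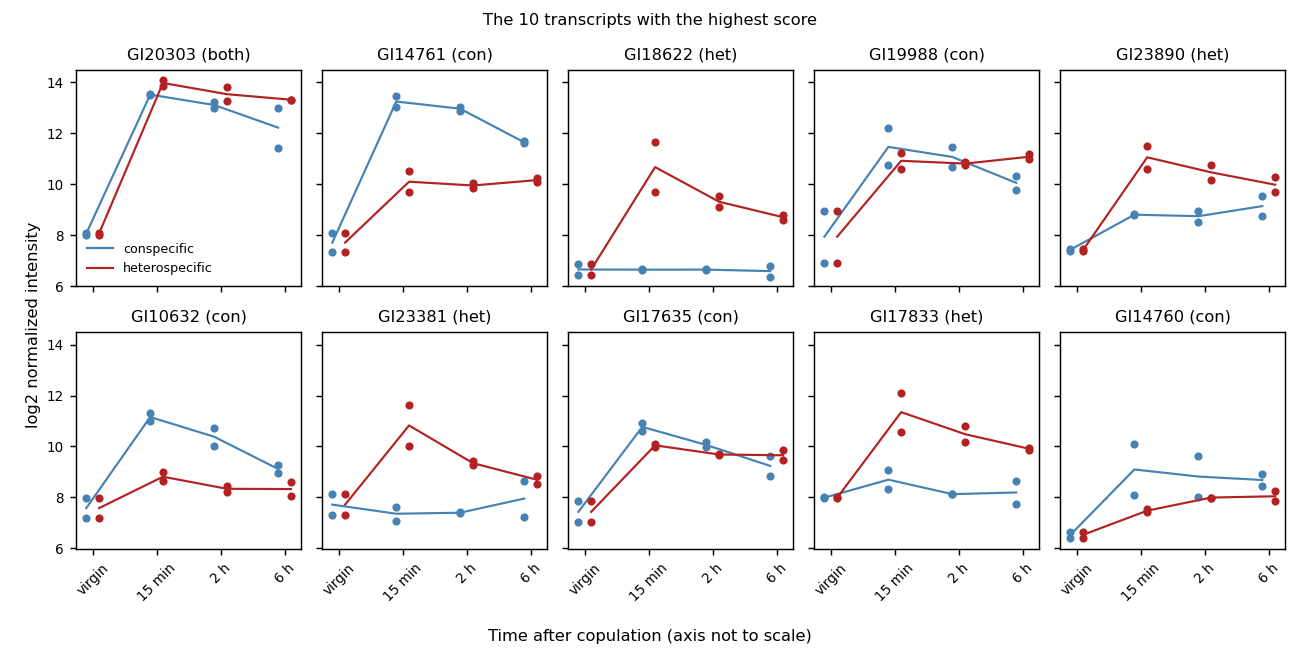
Log2 normalized intensity of the 10 members with the highest score in virgins and at 15 min, 2 h and 6 h after conspecific (blue) or heterospecific (red) mating. Points are single arrays, lines join the means of 2, the virgin points are the same arrays in both colours, and the name in brackets is the series that carried the transcript. GI18622 stays between 6.37 and 6.80 after conspecific mating and reaches 11.66 on 1 heterospecific array.

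Over all 40 members the median rise at 15 min in the series that carried them (the one with the higher score for the 4 carried by both) was 1.75, with a range of 0.94 to 5.91. The medians over all transcripts were 0.01 after either mating. Both 15 min arrays of that series lay above both virgin arrays for 39 of 40 members. That separation was seen for 14.1% of all transcripts after conspecific and 12.6% after heterospecific mating, and since the rule used these arrays nothing is read from the count. In virgins 13 members were not above background, against 38.5% of all transcripts. Their rises were at least 1.10-fold to at least 10.5-fold. Members carried by the heterospecific series alone had a median change of 0.21 at 15 min after conspecific mating, and 9 of the 19 were not above background there. Those carried by the conspecific series alone had a median of 1.06 after heterospecific mating, and 1 of the 17, GI23726, was not above background. Of all 14519 transcripts, 8533 and 8443 were above background on the 2 conspecific 15 min arrays, and 8848 and 8437 on the heterospecific ones. The changes at 15 min after the 2 matings share the virgin arrays.

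The rule averaged the probes of a transcript, so their shared direction in a member's series restates the choice and is given as a description. Of the 194 probes of the 40 members, 192 were higher at 15 min than in virgins in the member's series, where 50.3% of all probes were higher at conspecific 15 min and 51.1% at heterospecific 15 min. In GI20303 the 5 probes rose by 5.61 to 6.22. In GI14761 the probe at position 163 of the transcript rose by 2.55 and the others by 5.54 to 5.88. A probe of GI17833 at position 2 was bright in virgins already, at 12.10, and stood at 12.21 at heterospecific 15 min, while the other 4 rose by 2.66 to 3.99. No probe of a member reached the scanner's ceiling on any array (0 of 194). The last probe of a member lay at a median position of 520.5 bases along the transcript, against 931 over all transcripts, so the members' probes reached less far. Positions count from the start of the sequence used for probe design, and probe sequences were not used here.

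Of the members, 3 pairs have neighbouring GI numbers, within 2 of each other, and each pair was carried by the same series. GI14760 and GI14761 were carried by the conspecific series, and GI17832 and GI17833, and GI13443 and GI13445, by the heterospecific. Whether the pairs share probes or lie side by side in the genome was not analysed here.

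The virgin level of several members rested on 1 array. Virgin replicate 2, a dim array, was below replicate 1 by more than 1 in 9 of the 40 members, against 3.98% of all transcripts (a difference over 1 either way was seen for 7.06%). The rule used the virgin mean, so a transcript very low on 1 virgin array was more likely to be chosen. In these 9 the 15 min mean was above virgin replicate 2 by 1.63 to 4.54, and above replicate 1 by -0.01 to 2.50. GI16001, carried by both series, stood at 12.95 on virgin replicate 1 and 10.10 on replicate 2. Its 15 min arrays read 12.91 and 12.95 after conspecific and 13.15 and 12.73 after heterospecific mating, so they overlapped the virgins. At 2 h and 6 h GI16001 read 12.35 and 11.30, and 11.49 and 11.75, after conspecific mating. After heterospecific mating it read 11.91 and 13.16, and 12.90 and 11.69, overlapping the 15 min arrays at both times. GI11713, also carried by both, had 10.24 and 7.73 in virgins and 10.43 and 10.88 at conspecific 15 min, then 11.06 and 9.58, and lastly 8.59 and 9.86. Its heterospecific values were 10.80 and 11.16, 10.20 and 10.96, and 10.36 and 9.84. The last member carried by both, GI23018, had 8.55 and 8.02 in virgins, 9.74 and 9.44 at conspecific and 9.95 and 9.24 at heterospecific 15 min. At 2 h GI23018 was at 8.40 and 8.48 after conspecific and at 8.95 and 9.36 after heterospecific mating. At 6 h it was at 8.06 and 8.81, and at 8.99 and 9.15. Chosen without virgin replicate 2, the set kept 26 of the 40. All 16 with the highest scores stayed, and 10 of the other 24. Of the 4 carried by both series, 1 stayed, GI20303. Whether RNA quality or array brightness has a part in the low virgin values was not tested.

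**Figure D3:**
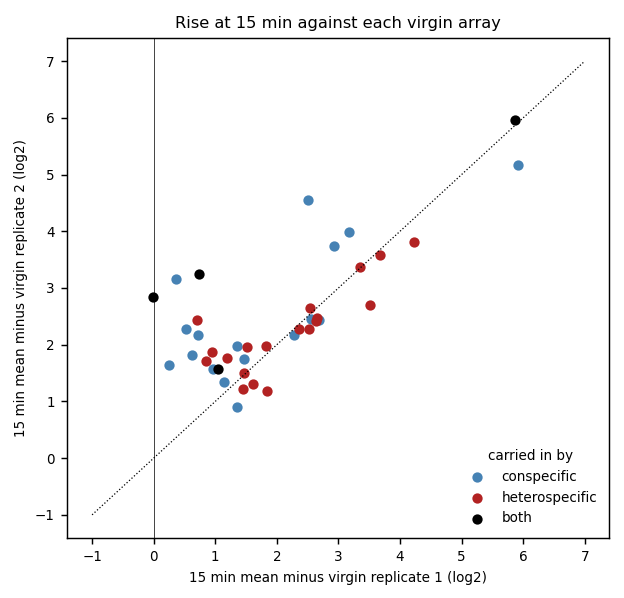
Rise of the 40 members at 15 min in their series, as log2 15 min mean minus virgin replicate 1 (x axis) and minus virgin replicate 2 (y axis), coloured by the series that carried them, with equality as the dotted line. The 9 members whose virgin arrays differ by more than 1 lie far above the line.

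Among members carried by the heterospecific series, replicate 2 at 15 min was often much brighter than replicate 1. It was higher by more than 1 in 9 of the 19, against 0.882% of all transcripts. These 9 were GI18622, GI23381, GI17833, GI19546, GI11629, GI17858, GI17832, GI13071 and GI10530, with differences of 1.43 to 2.28. The rule averaged these arrays, so a transcript very high on 1 of them was more likely to be chosen. On replicate 1 alone the difference from the virgin mean was 0.45 to 3.03 over the 9, on arrays the rule also used. Among the 17 members carried by the conspecific series alone 0 showed such a difference on these arrays, and their median difference was -0.11. These arrays did not choose the 17. On the conspecific 15 min arrays, which did, replicate 2 minus replicate 1 ran from -2.01 to 1.77 over the 17, with a median of -0.15. Replicate 1 dates from day 1 and replicate 2 from day 2. Within day 1, the 6 h mean minus replicate 1 at 15 min ran from -1.32 to -0.12 over the 9, again on arrays the rule used.

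Acp2 and Acp11, named for proteins of the male accessory glands, moved with some of these values. Of the 4 transcripts named Acp, for accessory gland proteins, 3 were not above background in virgins and at each conspecific time, and 1 at each heterospecific time. Their summed intensity was 509 to 543 in virgins, 522 to 616 at conspecific 15 min, and 1649 and 5448 at heterospecific 15 min. It was 1254 and 1579 at heterospecific 2 h and 912 and 1104 at 6 h. Acp2 was higher on heterospecific 15 min replicate 2 than on replicate 1 by 2.06 and Acp11 by 1.52. Acp48, under the background limit throughout, read 6.42 and 6.50 on these arrays. Acp7, above background in every group, went from 7.86 to 7.51 and had read 7.80 and 7.75 in virgins, so the summed level follows mainly Acp2. Transcripts named Tes, for testis, are given only as a sum. Their summed intensity was 81503 to 88592 in virgins, 80283 to 81990 at conspecific 15 min and 73442 to 86387 at heterospecific 15 min, and 12 to 14 of the 25 were not above background in each group. Over the 14 arrays the sum ran from 66140 to 91674. A rise as large as that of the Acp sum could be lost in this range, so nothing is read from it. The part of RNA from males in the members' values was not tested.

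**Figure D4:**
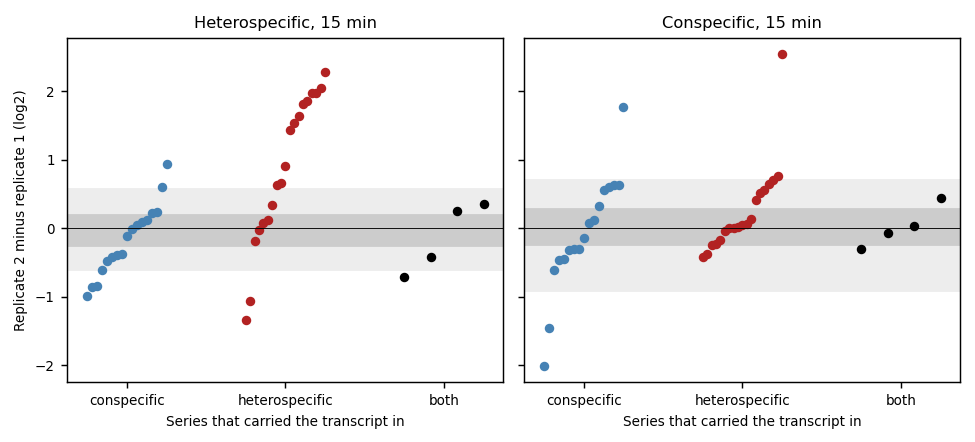
Difference between replicate 2 and replicate 1 at 15 min (log2) for each member, after heterospecific (left) and conspecific mating (right), by the series that carried it. The dark band holds the middle 50% and the light band the middle 90% of all transcripts, and 9 members carried by the heterospecific series lie above 1 on the left.

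The steps between times in a member's own series are values the rule used. In members carried by the heterospecific series alone the median difference was -0.70 from 15 min to 2 h and -0.41 from 2 h to 6 h. For those carried by the conspecific series alone the medians were -0.46 and -0.53. Whether the groups of members differ in this was not tested, and the bright heterospecific 15 min replicate 2 enters the first step. In intensity above the virgin level, a median of 29.9% of the rise was left at 6 h over the 40 members. The lowest share was -0.46%, for GI22062, and the highest 77.5%, for GI20158.

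The difference between times in the other series did not decide a member's place, and was tested. For the 4 members carried by both, which would be members by either series alone, the means had the order in both, so each test was also read without them. Leaving them out removes members because they came down in the tested series. The counts without them therefore lean against a fall and are given as a description. The question was whether a transcript chosen for its course after one kind of mating was also lower at 6 h than at 15 min after the other. Of the 21 members carried by the conspecific series (the 4 carried by both included), 18 had a lower mean at 6 h than at 15 min after heterospecific mating. Their median difference was -0.53, from -0.88 to 0.56. Over all transcripts 52.3% were lower and the median was -0.01. Both 6 h arrays were below both 15 min arrays for 12 of the 21, against 24.4% of all transcripts. However, 0 of the 21 passed the test (limma, 1 mean per group over all 14 arrays, Benjamini-Hochberg adjustment over all transcripts, threshold 0.05), where 0.0276% of all transcripts were called lower. The lowest adjusted p by limma was 0.332, for GI19569, with a difference of -0.73 (SE 0.22). At an unadjusted limma p under 0.05 it was the only member of the 21, against 4.51% of all transcripts. Without the 4 carried by both, 14 of 17 had a lower mean at 6 h, the median was -0.45 and 0 passed. Both 6 h arrays were below both 15 min arrays for 9 of these 17. On day 1 alone, with 1 array at 15 min, the median difference of the 21 was -0.52.

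Among the members with array values above, the heterospecific 6 h mean minus the 15 min mean was 0.06 for GI14761 (SE 0.30, limma adjusted p = 0.969) and 0.16 for GI19988 (SE 0.61, limma adjusted p = 0.962). That of GI10632 was -0.48 (adjusted p = 0.669), that of GI17635 -0.39 (adjusted p = 0.731) and that of GI20303 -0.66 (adjusted p = 0.640). For GI14760 it was 0.56 (limma adjusted p = 0.815). A p above the threshold does not show that a level stayed the same. The median SE of such a difference was 0.226 over all transcripts, with 2 arrays a group.

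After conspecific mating the 23 members carried by the heterospecific series (again with the 4 carried by both) had a median difference from 15 min to 6 h of -0.06, from -1.42 to 0.60. For 14 of the 23 the mean was lower at 6 h, against 51.3% of all transcripts. At conspecific 15 min 9 of the 23 were not above background, and of the other 14 11 were lower at 6 h. Both 6 h arrays were below both 15 min arrays for 8 of the 23, against 19.6% of all transcripts. The test called 0 of the 23, where limma called 0.0895% of all transcripts lower and 0.0138% higher. At an unadjusted limma p under 0.05, 3 were lower, against 7.62%. Without the 4 carried by both, 10 of 19 had a lower mean at 6 h, the median was -0.01, 0 passed, and the lowest limma adjusted p was 0.294. Both 6 h arrays were below both 15 min arrays for 4 of these 19, near the share of all transcripts, after members with a fall there were left out. At an unadjusted limma p under 0.05, 1 of the 19 was lower. Of the 10 above background at conspecific 15 min, 7 were lower at 6 h. With the 4 included the lowest limma adjusted p was 0.146, for GI23018, with a difference of -1.16 (SE 0.30). With the day as a block it was -1.52 (limma adjusted p = 0.0438). For GI20303 the difference was -1.30 (SE 0.39, limma adjusted p = 0.196), and -2.08 without conspecific 6 h replicate 1 (limma adjusted p = 0.0265), a dim array. Both are carried by both series and were named for having the order in each, so these single values are no independent evidence. On day 2 alone, with 1 array at 6 h, the median of the 23 was -0.15.

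**Figure D5:**
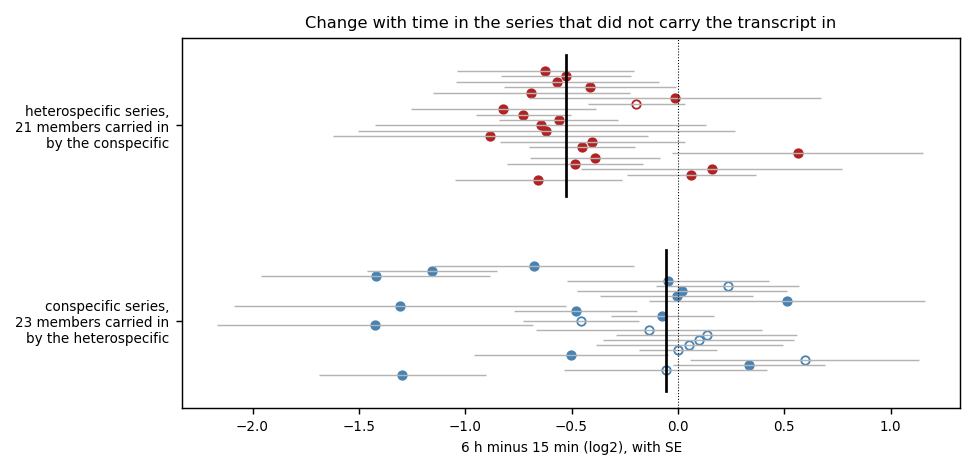
Change from 15 min to 6 h (log2, with its limma SE) of each member in the series that did not need to carry it, for the 21 members carried by the conspecific series (top, heterospecific arrays) and the 23 carried by the heterospecific series (bottom, conspecific arrays), with the 4 carried by both in each. Open points were not above background at 15 min, and the black bars are the medians, -0.53 and -0.06.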

How the data were processed

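The deposited files hold 1 perfect-match intensity for each of 71998 probes per array, and the file headers name NimbleScan 2.4.67. RMA stands in the submitters' processing notes, yet the deposited intensity table equals the raw probe values (0 differ), so no normalized values from the authors were used. From the deposited intensities, log2 levels per transcript were made by normexp background correction in limma 3.58.1 (offset 50), quantile normalization and median polish over probes, in R 4.3.3. Folds of dim transcripts are understated by the offset. Without control probes, the background limit of an array was the mode of its levels plus 2 SDs, taken from the levels below the mode. Where virgins were not above it, a fold sets the 15 min mean against that limit, or against the level measured if higher, averaged over the virgin arrays.

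limma fitted 1 mean per group over all 14 arrays (7 residual and 3.53 prior degrees of freedom), with 2-sided tests of 6 h against 15 min in each mating series, and was tested on simulated data. The number of arrays limits the precision. The members, tests and lists were chosen with earlier results of these data known. Array values are given for the 10 highest scores and the members carried by both series; no member passed the test in a series it was not chosen by, so none was added for that. Lists by gene function could not be applied to GI numbers. Other arrays were left out in turn, and other background corrections, normalizations, summaries, blocks and covariates were tried.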

Additional observations from a re-analysis of the deposited data

Results flagged for a closer look

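In 3 members the arrays moved in opposite directions between 15 min and 6 h in the 2 series. Both heterospecific arrays at 6 h lay below both at 15 min, while both conspecific arrays at 6 h lay above both at 15 min. This was seen for 1.86% of all transcripts, and the rule favoured the heterospecific side of it. The heterospecific difference minus the conspecific one was -1.70 (SE 0.64) for GI11629, -1.66 (SE 0.60) for GI17858 and -1.07 (SE 0.48) for GI10530 on the log2 scale. A limma test of this difference, adjusted over all transcripts, called 0 of the 40 members and 0 of 14519 transcripts, and the lowest adjusted p of a member was 0.983. At an unadjusted limma p under 0.05 there were 14 of the 40, these 3 included, against 3.20% of all transcripts. The rule chose each member on 1 side of this difference, so nothing is read from the members' count, and the test was not among those planned. All 3 were not above background at any conspecific time, so the conspecific arrays give no order for them. GI10530 was not above background at heterospecific 2 h or 6 h either, and its replicate 1 at heterospecific 15 min lay under the limit.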

How the results depend on the processing

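With 2 arrays a group, the calls and the membership can turn on 1 array. Among the 21 members carried by the conspecific series, 0 passed for heterospecific 6 h against 15 min under each of the 28 alternatives run. For the 23 carried by the heterospecific series the conspecific count was 0 under 25 of 28. It was 1 with the day as a block (GI23018), 1 without the 4 dim arrays (GI20303) and 0 to 1 when single arrays were left out, the 1 being GI20303 without conspecific 6 h replicate 1. The cause was not tested. Of the 28 alternatives, 1 was the deposited intensity table, which equals the raw values and so repeats the main run. With the compared groups alone, the lowest limma adjusted p of the 21 members was 0.107. The median changes ran from -0.59 to -0.39 and from -0.25 to 0.10. Of the 40 members, 24 were chosen again without the 4 dim arrays, 26 without virgin replicate 2, 26 to 39 without any 1 array, 31 on the scale used for levels, 32 with median scaling, 36 with cyclic loess and 28 with the median of probes. Both 15 min arrays stayed above the virgins for 35 to 40 of 40 under alternatives added for it after the data were seen. Over all transcripts the test called 15 after conspecific and 4 after heterospecific mating, against 0 and 2 with median scaling, 20 and 11 with cyclic loess, 108 and 5 with the day as a block, 30 and 778 without the 4 dim arrays, 0 and 31 with the compared groups alone, 1 and 4 with each array's probe slope in the model, and 0 to 73 and 2 to 32 without single arrays. On day 2 alone 0 were called after conspecific mating and on day 1 alone 264 after heterospecific mating, with a lone array in 1 of the groups assumed to vary like the others. The mean of probes gave 24 and 4, and a filter on dim transcripts 22 and 4. Replicate numbers did not pair the arrays: 8 of 21 pairs of groups had deviations correlated above 0.1 (from -0.63 to 0.51), and 4 of 14 arrays correlated best with their own number. With the replicate block both member counts were 0, and 10 and 4 transcripts were called in all.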
